A study of Rattus norvegicus with 30 samples.

Results

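All injured rats were set against all sham-operated rats, to ask whether any effect of a spinal cord injury was present at every time after it. The comparison used 30 of the 30 libraries of the series, 20 from injured and 10 from sham rats, and each library was placed by its title. The animals were adult female Long Evans rats (strain Crl:LE, over 10 weeks of age). Injured rats had a thoracic spinal cord injury (SCI) and were taken 1, 3, 6 or 12 weeks later, and sham rats had a sham operation and were taken after 1 or 12 weeks, with 5 rats in each of these 6 groups. The tissue was the intermediate gray matter (laminae IV-VII) of both sides at the third cervical level, above the lesion. Ribosomal RNA was removed and the remaining RNA was sequenced, with 1 library per rat. The 5 rats of a group had been picked from larger groups on the quality and amount of their RNA, and rats whose lesion was of inadequate size had been left out.

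A thoracic injury cuts the axons of corticospinal neurons that run from the hindlimb motor cortex to the lumbar cord. As background, such cut axons can form new branches in the cervical gray matter, where they meet local interneurons and neurons that project along the cord. The cervical tissue lies outside the lesion, but it loses ascending input from below and can receive new descending fibres. A bulk library of this tissue holds RNA of neurons, glia, blood vessels and immune cells together, so fewer cells of a type and less RNA per cell cannot be told apart.

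Sham rats were taken at 1 and 12 weeks and none at 3 or 6 weeks, so the 3 and 6 week rats had no sham rats of their own week. The fold changes compare the mean of 4 injured groups with the mean of 2 sham groups. Within each of these means every group had the same weight. Library totals ranged from 6459555 counts, written as 6.46 M, to 33.5 M in injured and from 10.6 to 37.4 M in sham rats. The mean was 14.1 M ± 6.07 (SD, n = 20) in injured and 18.1 M ± 7.82 (SD, n = 10) in sham rats, a difference of -3.96 M (permutation test, p = 0.149, adjusted p = 0.224 over 3 library values). The number of genes with at least 1 count was 17416 ± 484 and 17760 ± 456 in the same order (permutation test, p = 0.0718, adjusted p = 0.215). The share of counts taken by the 10 most abundant genes was 11.0% ± 1.03 in injured and 11.3% ± 0.914 in sham rats (permutation test, p = 0.418). The tables list 32545 gene identifiers without names, and 0 of them matched the reference table. The genes are therefore given by identifier with no function, no marker of the tissue could be checked, and no sequence is shown.

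One library goes against part of its labels. Sham 1 week replicate 1 is titled and described as a control, whereas its surgery and source entries give an injury. It was kept as sham, and the main results are given with all 30 libraries and with the 29 that remain without it.

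No gene passed the adjusted threshold between all injured and all sham rats, with or without that library. Of 14801 genes tested with all 30 libraries, 0 (0%) had an adjusted p under 0.05 (edgeR quasi-likelihood test with Benjamini-Hochberg adjustment, smallest adjusted p = 0.151), and 1931 had an unadjusted p under 0.05, 13% of those tested. By DESeq2 16 genes passed (0.108%), 8 higher and 8 lower, and by limma-voom 0 (0%). In edgeR 5 of 14801 genes passed with sham 12 weeks alone as the reference and 7 of 14801 with 2 surrogate variables in the fit. Without sham 12 weeks replicate 4 it was 1 of 14930 genes. With 29 libraries 0 of 14909 genes passed (edgeR, smallest adjusted p = 0.208), and the unadjusted p was under 0.05 for 1835 (12.3%), of which 941 (6.31%) were higher and 894 (6%) lower. Both fits tested 14798 genes in common, and 1593 of these had an unadjusted p under 0.05 in each fit. All 1931 genes of the first fit kept their sign in the second. The fits share 29 libraries and these genes were picked for a small p in the first, so nothing is read from the signs.

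The counts of higher and lower genes were close over all genes but not within bins of abundance. Among the 1931 genes with a small unadjusted p, 1012 (6.84% of genes tested) were higher and 919 (6.21%) lower in injured rats. Their absolute log2 fold change had a median of 0.16, against 0.07 over all genes tested. A pick on small p favours larger fold changes, so nothing is read from this gap. Of the 1931 genes, 139 differed by more than 1.5-fold and 19 by more than 2-fold. At any p, 191 of the 14801 genes tested differed by more than 1.5-fold. With 29 libraries these counts were 98, 10 and, of 14909 genes tested, 160. Upper-quartile scaling gave 1120 higher and 839 lower genes, and the median log2 fold change over all genes was within 0.01 of 0 under each scaling tried.

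Precision depended on how many counts a gene had. The genes were put into 3 bins of about equal size by CPM, the level of a gene in counts per M of a TMM-scaled library. The lowest bin, from 0.295 to 8.96 CPM, had a median standard error of 0.16 on the log2 scale, the middle bin 0.07 and the highest bin 0.04. The unadjusted p was under 0.05 for 9.06% of genes in the lowest, 12.1% in the middle and 18% in the highest bin. These genes were 239 higher and 208 lower in the lowest, 244 higher and 354 lower in the middle, and 529 higher and 357 lower in the highest bin, so the middle and highest bins leaned in opposite directions. The 95% interval of the difference excluded 1.5-fold in either direction for 65.6% of genes in the lowest bin and for 99.1% and 99.9% in the others. For 72.5% of all genes the intervals of all 4 weekly comparisons excluded 1.5-fold, and for 87.3% they excluded 2-fold.

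**Figure D1:**
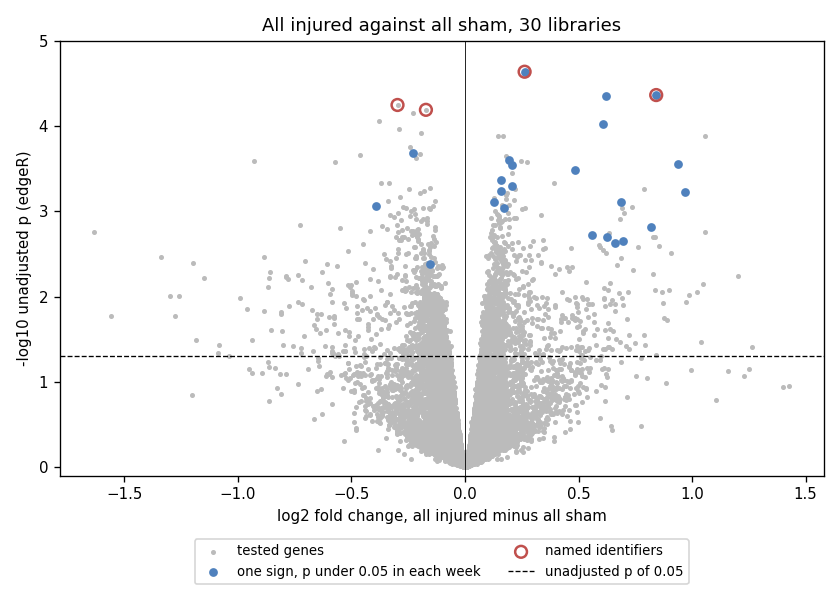
Log2 fold change (all injured minus all sham, x axis) against the -log10 unadjusted p of edgeR (y axis) for 14801 genes. The 23 genes with one sign and an unadjusted p under 0.05 in each week are blue and 20 of them lie on the higher side; red rings mark the 4 named identifiers, of which none passed the adjusted threshold.

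Values are given in full for 2 identifiers in each direction, those of smallest p with all 30 libraries. With 29 libraries ENSRNOG00000056996 had rank 5 by p among the higher genes. The 2 lower identifiers changed places there. ENSRNOG00000006509 had the smallest p of all genes. Its level was 126, 128, 121, 116 and 114 CPM in the 5 sham rats of 1 week, in replicate order, and 103, 107, 96.9, 95.2 and 96.4 CPM in those of 12 weeks. In injured rats it was 149, 155, 125, 129 and 143 CPM at 1 week, 141, 125, 130, 116 and 132 CPM at 3 weeks, 128, 142, 154, 113 and 141 CPM at 6 weeks, and 117, 110, 164, 111 and 111 CPM at 12 weeks. The sham rats of 12 weeks all lay below every injured rat, those of 1 week overlapped the injured range, and 12 of 20 injured rats lay above all 10 sham rats. The log2 fold change over all weeks was 0.26 (standard error 0.054). Without the library with conflicting labels it was 0.27 (standard error 0.056). In edgeR the adjusted p was 0.151 and 0.208 in this order. Over all settings tried it ran from 0.02 (DESeq2) to 0.601 (edgeR), and the lowest edgeR value was 0.0278.

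ENSRNOG00000056996 had few counts and the larger fold change of the pair. Sham rats had 2.2, 4.12, 1.78, 1.82 and 2.83 CPM at 1 week and 3.04, 0.873, 1.66, 2.74 and 2.76 CPM at 12 weeks. Injured rats had 4.22, 6.12, 5.41, 3.8 and 4.42 CPM at 1 week, 3.03, 4.84, 5.59, 3.09 and 3.05 CPM at 3 weeks, 3.97, 5.45, 4.63, 4.13 and 2.97 CPM at 6 weeks, and 4.57, 1.23, 4.68, 3.56 and 3.91 CPM at 12 weeks. Sham 1 week replicate 2 lay in the middle of the injured rats, and sham 12 weeks replicate 1 lay above 3 of them. SCI 12 weeks replicate 2 lay below all but 1 of the sham rats, while 11 of 20 injured rats exceeded every sham rat and 19 of 20 injured rats exceeded the sham median. The log2 fold change was 0.84 (standard error 0.18), a ratio of 1.79. In the 29 libraries it was 0.82 (standard error 0.19). The adjusted p of edgeR was 0.151 and 0.265 in this order. Its range over all settings tried was 0.02 (DESeq2) to 0.601 (edgeR), with 0.0475 as the lowest edgeR value.

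Of the genes lower in injured rats, ENSRNOG00000004608 had the smallest p with all 30 libraries. Sham rats had 27.6, 23.3, 30, 30.3 and 32.4 CPM at 1 week and 33.6, 31.4, 38.3, 33.6 and 32.9 CPM at 12 weeks. Injured rats had 26.5, 25.1, 24.5, 20.2 and 19.7 CPM at 1 week, 16.6, 24.7, 27, 26.3 and 25.7 CPM at 3 weeks, 27.7, 28.1, 23.1, 28.4 and 25 CPM at 6 weeks, and 29.9, 28.5, 22.7, 28.3 and 31.9 CPM at 12 weeks. Here 5 of 20 injured rats lay below every sham rat, and the lowest sham value, of sham 1 week replicate 2, fell within the injured range. The log2 fold change was -0.30 (standard error 0.065), and -0.31 (standard error 0.069) in the 29 libraries. By edgeR the adjusted p was 0.151 and 0.208 in this order. Across all settings tried it lay between 0.0303 (DESeq2) and 0.601 (edgeR), and the lowest edgeR value was 0.0457.

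ENSRNOG00000021125 had the smallest fold change of the 4. Sham rats had 143, 141, 148, 162 and 153 CPM at 1 week and 161, 170, 156, 172 and 174 CPM at 12 weeks. Injured rats had 131, 139, 132, 133 and 134 CPM at 1 week, 122, 138, 141, 132 and 151 CPM at 3 weeks, 135, 139, 139, 151 and 147 CPM at 6 weeks, and 157, 142, 125, 151 and 167 CPM at 12 weeks. All 5 injured rats of 1 week lay below every sham rat, as did 13 of the 20 injured rats, whereas those of 12 weeks reached from 125 to 167 CPM. The log2 fold change was -0.17 (standard error 0.038), and -0.18 (standard error 0.040) in the 29 libraries. Here edgeR gave an adjusted p of 0.151 and 0.208 in this order. All settings tried gave 0.0303 (DESeq2) to 0.601 (edgeR), with 0.0359 as the lowest edgeR value. These 4 identifiers were picked for their small p between these same rats, so the separation of their levels is a description.

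**Figure D2:**
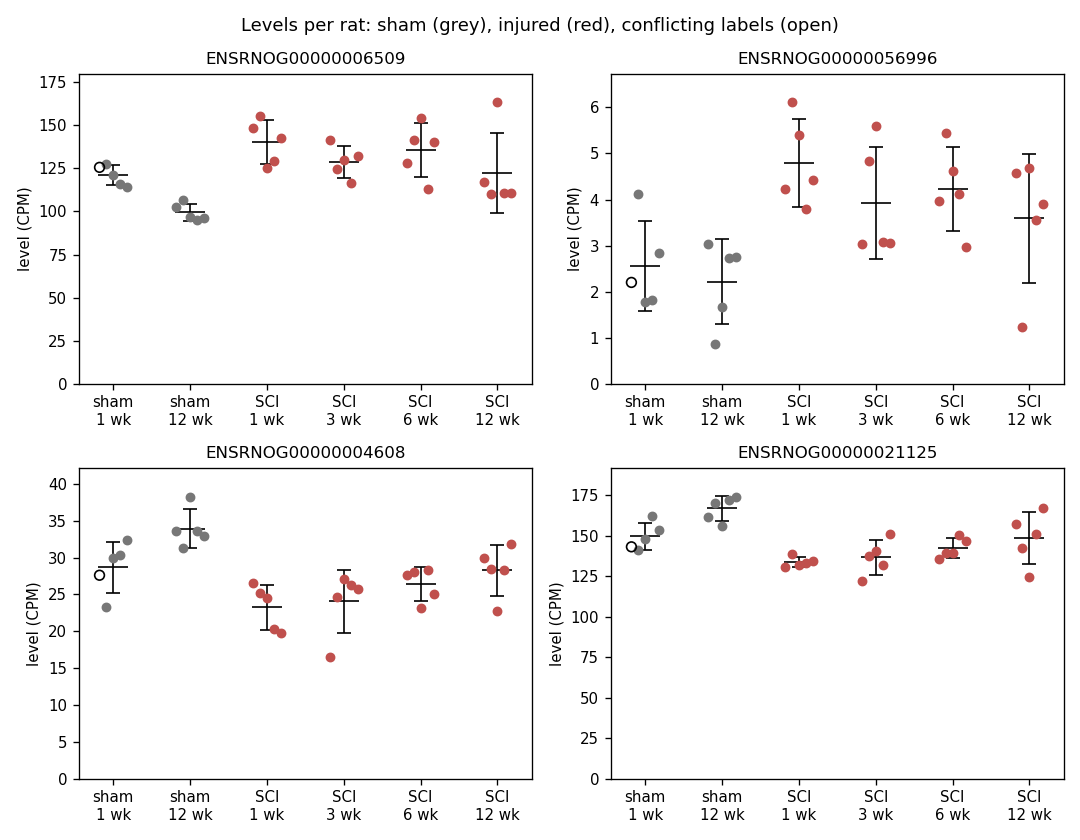
Level in CPM (y axis) of the 4 named identifiers in each rat, by group (x axis); bars show the mean and SD of 5 rats, and the open circle is the library with conflicting labels. In ENSRNOG00000006509 the 12 week sham rats, at 95.2 to 107 CPM, lie below every injured rat, while those of 1 week overlap the injured range. In the other 3 identifiers injured and sham rats overlap as well.

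Across the weeks the named identifiers kept one sign. They were picked on the mean of these same weeks, which favours one sign, so nothing is read from the signs. With both sham groups as the reference, the log2 fold change of ENSRNOG00000006509 was 0.35 at 1 week, 0.23 at 3 weeks, 0.30 at 6 weeks and 0.16 at 12 weeks. That of ENSRNOG00000056996 was 1.05, 0.78, 0.86 and 0.68 at the same weeks. ENSRNOG00000004608 had -0.43, -0.37, -0.25 and -0.15, and ENSRNOG00000021125 had -0.24, -0.21, -0.15 and -0.09. All 4 were farthest from 0 at 1 week and nearest to 0 at 12 weeks, but the joint test among the 4 injured groups passed for none of them (edgeR quasi-likelihood F-test, adjusted p = 0.789, 0.924, 0.719 and 0.764, unadjusted p from 0.0689 to 0.561). At 12 weeks the 95% interval included 0 for ENSRNOG00000004608 (-0.34 to 0.04) and ENSRNOG00000021125 (-0.20 to 0.02). The 12 week values of 3 identifiers rested largely on SCI 12 weeks replicate 3. Without this rat they were 0.03 in ENSRNOG00000006509, -0.07 in ENSRNOG00000004608 and -0.03 in ENSRNOG00000021125 (edgeR, unadjusted p = 0.639, 0.441 and 0.54). Among injured rats its library had the most counts, 33.5 M, and the most genes with a count, 18472. It also had the lowest share of the 10 most abundant genes, 8.74%. Whether these library values bear on its levels was not tested. Without SCI 12 weeks replicate 5 the value of ENSRNOG00000021125 was -0.14 (edgeR, unadjusted p = 0.0192).

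**Figure D3:**
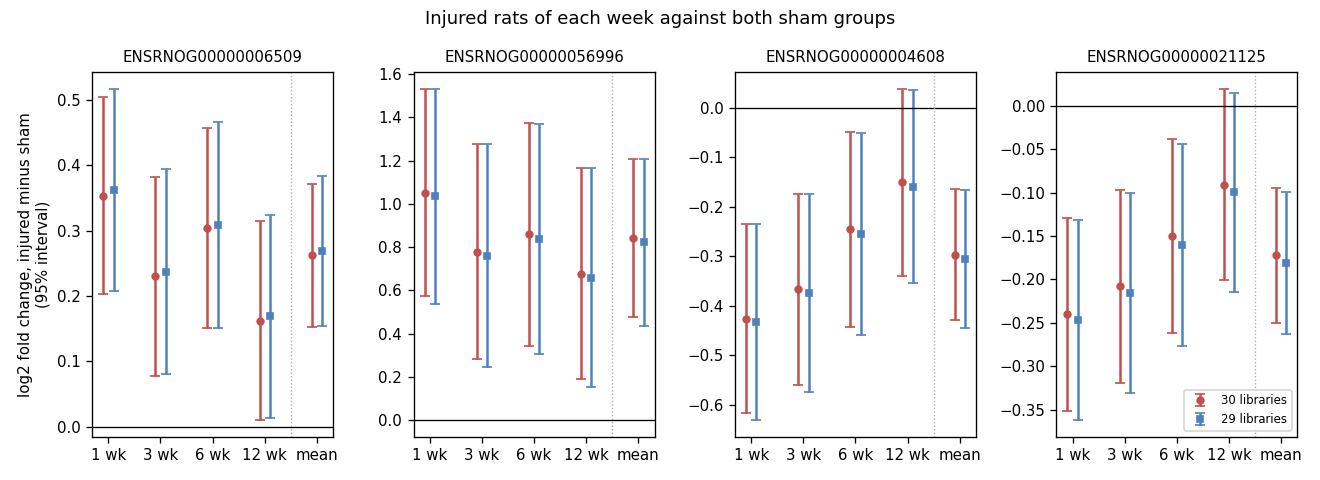
Log2 fold change of injured rats of each week against both sham groups, and of the mean of 4 weeks (x axis), with 95% intervals, for the 4 named identifiers and with 30 (red) or 29 libraries (blue). At 12 weeks the intervals of ENSRNOG00000004608 and ENSRNOG00000021125 include 0, and the values with 29 libraries lie close to those with 30.

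When each of the weeks 1 and 12 had its own sham rats as the reference, the comparisons shared no rat. Their rats are among those on which the identifiers were picked. ENSRNOG00000006509 then differed by 0.21 with a standard error of 0.086 at 1 week and by 0.30 with a standard error of 0.087 at 12 weeks, but by 0.17 at 12 weeks without SCI 12 weeks replicate 3. ENSRNOG00000056996 differed by 0.96 and 0.77, ENSRNOG00000004608 by -0.31 and -0.27, and ENSRNOG00000021125 by -0.16 and -0.17 at 1 and 12 weeks. Without SCI 12 weeks replicate 3 the 12 week values of the last 2 were -0.19 and -0.11. That of ENSRNOG00000056996 was 0.545 without sham 12 weeks replicate 2 (edgeR, unadjusted p = 0.0596). That of ENSRNOG00000004608 was -0.219 without sham 12 weeks replicate 3 (edgeR, unadjusted p = 0.0619). At 1 week ENSRNOG00000006509 differed by 0.175 without SCI 1 week replicate 2 (edgeR, unadjusted p = 0.0608). Each of these had an unadjusted p under 0.05 with all 30 libraries. The difference between the effects at 12 and 1 weeks passed for none of the 4 (edgeR, adjusted p from 0.906 to 0.988). Beside this, 3 of the 4 levels differed between the sham groups at an unadjusted p under 0.05, all 3 in the direction opposite to injury. From 1 to 12 weeks in sham rats the log2 fold change was -0.28 in ENSRNOG00000006509, 0.23 in ENSRNOG00000004608 and 0.16 in ENSRNOG00000021125 (edgeR, adjusted p = 0.417, 0.56 and 0.523). For ENSRNOG00000004608 the unadjusted p was 0.0329, and 0.0675 without the library with conflicting labels, 0.113 without sham 1 week replicate 2 and 0.113 without sham 12 weeks replicate 3. Against sham 1 week alone the log2 fold changes of injured rats were 0.12, -0.18 and -0.09, and against sham 12 weeks alone 0.40, -0.41 and -0.25 (edgeR, adjusted p = 0.58, 0.476 and 0.542, and 0.0278, 0.0457 and 0.0359).

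An effect that holds at every time was defined as one sign in all 4 weeks, with the largest of the 4 p-values tested. The 4 weekly comparisons share the sham rats, which favours one sign in all 4 weeks, so nothing is read from the share of genes with one sign. No gene passed after adjustment (0 of 14801, 0%, edgeR, smallest adjusted p = 1), and 5631 genes (38%) had one sign in all 4 weeks, 39.3% with 29 libraries. The unadjusted p was under 0.05 in each of the 4 weeks for 23 genes, 0.155% of those tested, of which 20 (0.135%) were higher and 3 (0.0203%) lower in injured rats. ENSRNOG00000006509 and ENSRNOG00000056996 were among the 23, with a largest p of 0.0372 and 0.00804. The former is the p of ENSRNOG00000006509 at 12 weeks. It was 0.639 without SCI 12 weeks replicate 3, and from 0.0503 to 0.0543 without any 1 of sham 12 weeks replicates 3, 4 and 5 and sham 1 week replicates 4 and 5, so this identifier met the criterion only with these libraries in the fit. The absolute log2 fold change of the 23 over all weeks had a range of 0.13 to 0.97 and a median of 0.48, and 13 of them were less abundant than the median gene. After adjustment 5 genes differed among the injured weeks (0.0338%, 0.0335% with 29 libraries).

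With 29 libraries 0 genes passed after adjustment (0%), and 21 genes (0.141%) had an unadjusted p under 0.05 in each week, of which 18 (0.121%) were higher and 3 (0.0201%) lower, and 17 were also among the 23. The count rested on single libraries. It was 50 without sham 1 week replicate 2, 14 without SCI 6 weeks replicate 1, 12 without SCI 12 weeks replicate 3 and 15 without SCI 12 weeks replicate 4. With sham 12 weeks alone as the reference 116 of 14801 genes met the criterion, 89 of them higher, and 16 were among the 23. With sham 1 week alone 44 of 14801 genes did, 23 of them higher, and 5 were among the 23. The lean to higher genes thus varied with the sham reference.

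The position of the group means was counted as well, as a description with no test. In 2630 genes (17.8%) all 4 injured group means lay beyond both sham group means, 1321 (8.93%) above and 1309 (8.84%) below. With 29 libraries this held for 2727 genes (18.3%), 1367 (9.17%) above and 1360 (9.12%) below. No gene separated the 20 injured from the 10 sham rats without overlap (0%), also without the library with conflicting labels. The order of injured and sham levels was the same in at least 0.9 of the 200 pairs of an injured and a sham rat for 5 genes (0.0338%), and in at least that share of pairs for 14 genes (0.0939%) with 29 libraries.

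The number of genes differed between the weeks. Against all sham rats, 171 genes passed at 1 week (1.16%, edgeR adjusted p under 0.05), of which 73 (0.493%) were higher. With 29 libraries 133 did so (0.892%), 55 of them higher (0.369%). At 3, 6 and 12 weeks 0 genes passed (edgeR, smallest adjusted p = 0.462, 0.11 and 0.693). The unadjusted p was under 0.05 for 2661 genes at 1 week (18%), 1052 at 3 weeks (7.11%), 1216 at 6 weeks (8.22%) and 635 at 12 weeks (4.29%). The shares higher and lower in injured rats were 8.9% and 9.08% at 1 week, 3.76% and 3.35% at 3 weeks, 4.58% and 3.63% at 6 weeks, and 2.25% and 2.04% at 12 weeks. Neither direction dominated in any week.

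Without the library with conflicting labels the unadjusted p was under 0.05 for 17.6% of genes at 1 week (8.95% higher, 8.67% lower) and 6.8% at 3 weeks (3.58% and 3.23%). It was so for 8.4% at 6 weeks (4.46% and 3.94%) and 3.58% at 12 weeks (1.93% and 1.66%). When the 1 week rats were taken out of the mean of the injured groups, the number of genes with an unadjusted p under 0.05 went from 1931 to 1166 and the smallest adjusted p from 0.151 to 0.601 (edgeR). Without the 12 week rats in the mean it was 2350, with a smallest adjusted p of 0.0528 (edgeR). Whether the counts of 2 weeks differ was not tested.

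**Figure D4:**
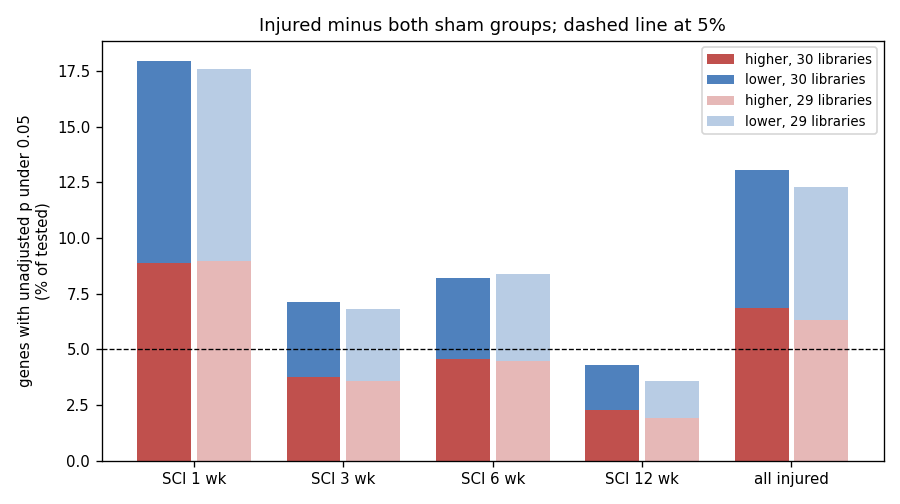
Percent of tested genes with an unadjusted p under 0.05 (y axis) for injured rats of each week and for all injured rats against both sham groups (x axis), split into higher (red) and lower (blue), with 30 libraries (dark) and 29 (light). The bar at 1 week reaches 18% and that at 12 weeks 4.29%, under the dashed line at 5%.

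The comparisons of 1 and 12 weeks with their own sham rats share no rat. The unadjusted p was under 0.05 for 2061 genes at 1 week (13.9%) and 785 at 12 weeks (5.3%). Both weeks had a small p in 113 genes, 5.48% of the list of 1 week, which is close to the 5.3% of all genes. Both weeks had a small p with the same sign in 65 genes, 3.15% of the former and 8.28% of the latter list, and with opposite signs in 48. Of the 65 genes, 49 were higher and 16 lower in injured rats. Over all genes tested the signs of the 2 weeks were equal in 53.7%, and over the 2061 genes of 1 week in 54.4%. With 29 libraries 54 genes had the same sign and 50 opposite signs, and the signs were equal in 51.6% of the 1930 genes of 1 week.

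Distances between whole libraries were used as a single value that needs no gene to pass. Between injured and sham rats lay 4.46% of the summed squares of these distances, against a mean of 3.45% over permutations (permutation test with 100000 resamples, p = 0.0124, adjusted by Benjamini-Hochberg over 7 tests 0.0216). With labels exchanged only within weeks 1 and 12, the log2 differences of both weeks from their own sham rats were averaged per gene. The mean square of this average was 0.0266, against 0.0198 over 63504 exchanges (exact permutation p = 0.00551, adjusted p = 0.0193). An effect in week 1 alone or in week 12 alone can make this value large, so it does not show an effect at both weeks. By week, 11.3% of the distances lay between SCI 1 week and all sham rats (exact permutation test, 3003 splits in all, p = 0.000666, adjusted p = 0.00466) and 9.43% between SCI 6 weeks and all sham rats (exact permutation p = 0.00866, adjusted p = 0.0202), against 7.14% over permutations. The share was 8.14% at 3 weeks and 7.72% at 12 weeks (exact permutation p = 0.14 and 0.239, adjusted p = 0.163 and 0.239). For the 15 injured rats of 3, 6 and 12 weeks together it was 4.83%, against 4.17% over permutations (permutation test, p = 0.0764, adjusted p = 0.107).

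The distance between all injured and all sham libraries did not pass without the library with conflicting labels. There the share was 4.25%, against 3.57% over permutations (permutation test, p = 0.0545, adjusted p = 0.0953), and the exchange within weeks gave an exact permutation p of 0.0285 with an adjusted p of 0.0665. At 1 week the share still passed, with 11.9% (exact permutation test, p = 0.0015, adjusted p = 0.0105), and at 6 weeks it no longer did, with 9.77% (exact permutation p = 0.017, adjusted p = 0.0594). The share was also 4.09% without sham 12 weeks replicate 4 (permutation test, p = 0.0977). The SCI 6 weeks libraries had the fewest counts, 9.67 M ± 2.73 (SD, n = 5), and the part of depth in their share was not tested. Without the 4 libraries under 9 M counts, all injured, the share was 5.32%, against 4.00% over permutations (permutation test, unadjusted p = 0.00637). The library with conflicting labels was kept in this test and in that without sham 12 weeks replicate 4.

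**Figure D5:**
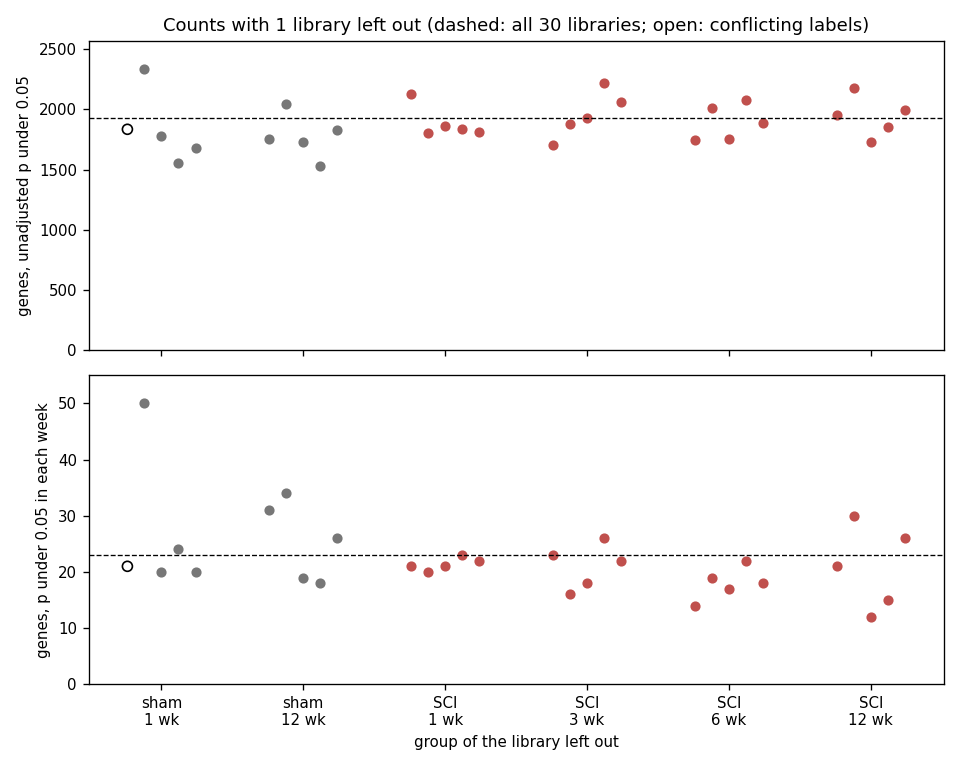
Number of genes with an unadjusted p under 0.05 between all injured and all sham rats (upper, y axis) and in each of the 4 weeks (lower, y axis) when 1 library is left out, by the group of that library (x axis). The upper count stays between 1528 and 2340, and the lower count runs from 12 to 50, with the highest value when sham 1 week replicate 2 is left out.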

How the data were processed

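The authors deposited raw counts, whole numbers per gene identifier in 1 table per library, which list 32545 identifiers, of which 9816 had no count in any library. Per the submitters' processing notes, the build was Rnor_6.0 and the tools were STAR 2.5.3a, featureCounts, Subread, Trimmomatic and bcl2fastq 2.19.05, in no stated order. Not given in the sources used here are the annotation release, strand setting and treatment of reads with several matches, so overlapping genes and near-identical copies are uncertain. Per the labels' protocols the libraries are strand-specific.

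Counts were tested with edgeR 4.0.16 in R 4.3.3 (TMM, filterByExpr, robust quasi-likelihood fit) in 1 model of 6 groups with no covariate. The filter kept 14801 genes with 99.9% of counts. P values were adjusted by Benjamini-Hochberg over all genes tested, with a threshold of 0.05. Distances were taken on log2 CPM (prior count 2) (Python 3.11.15, scipy 1.17.1). The main contrast, the weekly contrasts and the permutation tests of library values are two-sided. The share of distances is tested for large values only.

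Within groups the chi-square per degree of freedom between 2 libraries ran from 4.39 to 37.4 over 60 pairs, and no pair held identical counts. It used genes with at least 20 counts in the 2 libraries together. These values alone cannot show that libraries come from separate rats. Each rat counts as 1 replicate because there was 1 library per rat. The comparison, the gene lists and the tests were chosen with earlier results of these data known. Named genes were to be 12 per direction with a symbol. As no identifier matched the reference table (assembly GRCr8, 47357 rows), the rule fell to 2 identifiers per direction with the smallest p, and the gene lists, the cell type markers and the mitochondrial share were not run.

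Alternatives were other scalings (DESeq2 size factors, upper quartile), other filters, DESeq2 1.42.0, limma-voom (limma 3.58.1) with and without sample weights, no robust estimation, a threshold of 0.1, the replicate block, other references, 2 pooled groups, library size or 2 surrogate variables (sva 3.50.0) as covariates, and leaving out libraries. Leaving each injured group out of the mean and the distances between libraries were added after the data had been seen.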

Additional observations from a re-analysis of the deposited data

Results flagged for a closer look

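A rat far from the other 4 of its group was looked for in 42 sets of 5 rats (4 named identifiers and 3 library values in 6 groups). This gave 3 rats, and chance flags 1 in 20 sets, or 2.1 of 42. SCI 12 weeks replicate 3 had 164 CPM of ENSRNOG00000006509, with the other 4 rats between 110 and 117 CPM. SCI 3 weeks replicate 1 had 16.6 CPM of ENSRNOG00000004608, with the others between 24.7 and 27 CPM. Sham 12 weeks replicate 2 had 17776 genes with a count, with the others between 17448 and 17520. The injury effects of 1 and 12 weeks did not pass as different for any named identifier.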

How the results depend on the processing

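The 0 genes between all injured and all sham rats became 16 with DESeq2 (8 higher, all with an unadjusted edgeR p under 0.05), 5 with sham 12 weeks alone as the reference and 7 with 2 surrogate variables. With 1 library left out it ran from 0 to 1, the 1 without sham 12 weeks replicate 4. It stayed 0 under the other 19 settings. The genes with an unadjusted p under 0.05 became 1283 with 2 surrogate variables and 1166 without the 1 week rats in the mean, and ran from 1528 to 2340 with 1 library left out. With sham 1 week replicate 1 counted as injured they were 1644, and 0 genes passed. The genes with a small p in each week became 44 with limma-voom, 44 with sham 1 week alone, 116 with sham 12 weeks alone, 47 with 2 surrogate variables, 14 with library size as a covariate and 10 without the libraries under 9 M counts, and ran from 12 to 50 with 1 library left out. After adjustment this count was 0 under every setting run for it. The causes of these shifts were not tested.

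The log2 fold changes over all weeks of the 4 named identifiers kept their sign under all settings. The settings use the rats on which these identifiers were picked, so this is a description. All 4 passed with DESeq2, all but ENSRNOG00000056996 with sham 12 weeks alone and 1 (ENSRNOG00000056996) with 2 surrogate variables. With 1 library left out, the difference in total counts ran from -4.98 to -1.82 M (nearest to 0 without sham 1 week replicate 3), the share of the 10 most abundant genes from -0.49 to -0.20, the genes with a count from -414 to -241, and the share of distances from 4.09% to 4.95%.

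Replicate numbers are shared between groups in the titles. Same-numbered rats did not deviate together on average (mean r of -0.00135 over 75 pairs, 8 of them over 0.1), so the main fit has no pairing by number. Between rats of other numbers the mean r was 0.000331. What the number stands for was not tested. Of 30 libraries, 6 correlated best with one of their own number. Chance gives such matches too, so nothing is read from this count. With the replicate block 0 genes passed between all injured and all sham rats, 1895 had an unadjusted p under 0.05 and 19 had one in each week.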
